A study of Mus musculus with 4 samples.

Results

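Dmd and Chrna1 were the 2 genes of muscle function examined here among the 515 protein-coding genes that spanned or neighboured one of the 256 chromatin peaks of the long noncoding RNA MUNC. They were chosen from the positions of the peaks: Dmd because it spans the midpoint of a peak, Chrna1 because it is the nearest protein-coding gene on one side of a peak, within 1000000 bases. That choice makes the presence of a peak at each gene a given and not a finding, and the values below are descriptions without a test. The peaks come from chromatin isolation by RNA purification with sequencing (ChIRP-seq) in C2C12, a mouse cell line of muscle precursors that form multinucleated myotubes once serum is lowered. In ChIRP, biotinylated antisense oligonucleotides recover an RNA together with the crosslinked DNA around it. There were 2 groups of 2 libraries each, one pulled down with probes against MUNC and one with probes against lacZ as the negative control; all 4 carry the genotype label wild-type, a tissue label for myotubes and a source label for myoblasts. The cells are described as PAX7 NEG, were grown in 20% fetal bovine serum and were shifted to 2% horse serum for differentiation, for which the protocol gives 3 days. The files examined hold 1 peak list and 1 list of 410 symbols of adjoining genes for the whole series, with no enrichment, depth or value for a single library, so no value has a replicate error and the lacZ background at these peaks was not analysed here.

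Dystrophin, the product of Dmd, is a rod-shaped protein that ties the actin cytoskeleton of the muscle fibre to a glycoprotein complex in the plasma membrane and through it to the extracellular matrix, and its loss causes Duchenne muscular dystrophy. Full-length dystrophin is made from promoters at the 5′ end of the gene, and shorter proteins from promoters within it. Chrna1 encodes the alpha subunit of the muscle nicotinic acetylcholine receptor, the ligand-gated channel that receives the nerve signal at the neuromuscular junction; its transcription rises when myoblasts differentiate, through E-boxes bound by MyoD and related factors. MUNC is transcribed upstream of Myod1, the gene of MyoD.

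The sequences that follow are the promoters of the members, shown because they mark transcription starts to which the distance of the peaks is given, beside that to the ends of the gene bodies. Each is given 5′ to 3′ on the strand of the gene, from 250 bases before to 50 bases after the start, taken from RefSeq (GRCm38.p6). The first Dmd promoter lies at chrX:82948620-82948919 on the plus strand, the second at chrX:85048045-85048344 on the plus strand, and the Chrna1 promoter at chr2:73580289-73580588 on the minus strand. Capitals mark E-boxes (CANNTG) and the CArG box, the binding motif of serum response factor.
Dmd first promoter: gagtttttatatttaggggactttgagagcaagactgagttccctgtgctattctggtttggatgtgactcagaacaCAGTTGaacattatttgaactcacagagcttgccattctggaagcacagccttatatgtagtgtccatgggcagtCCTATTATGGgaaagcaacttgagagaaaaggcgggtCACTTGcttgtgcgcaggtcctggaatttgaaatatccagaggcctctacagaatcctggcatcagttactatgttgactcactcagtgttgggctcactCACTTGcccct
Dmd second promoter: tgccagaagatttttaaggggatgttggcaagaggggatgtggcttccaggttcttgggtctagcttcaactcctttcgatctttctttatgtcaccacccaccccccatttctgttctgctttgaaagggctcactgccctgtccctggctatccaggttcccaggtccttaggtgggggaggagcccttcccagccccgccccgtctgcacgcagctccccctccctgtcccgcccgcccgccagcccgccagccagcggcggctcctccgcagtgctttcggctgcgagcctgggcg
Chrna1 promoter: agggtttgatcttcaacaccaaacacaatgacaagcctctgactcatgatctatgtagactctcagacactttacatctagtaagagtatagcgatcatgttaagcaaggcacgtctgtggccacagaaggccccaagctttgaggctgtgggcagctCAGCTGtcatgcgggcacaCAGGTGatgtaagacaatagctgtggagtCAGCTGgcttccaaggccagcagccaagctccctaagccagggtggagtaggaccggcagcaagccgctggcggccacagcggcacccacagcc

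None of these 3 windows overlapped a peak, as held for nearly all promoters: 3 of the 32851 windows in the table (0.00913%) did. The first Dmd promoter had 3 E-boxes, and 17.6% of all windows had at least 3. Its CArG box began 98 bases before the start, a motif present in 1.63% of the windows. The second Dmd promoter had neither motif, and its GC content was 62.7% against 45.7% in the first. The Chrna1 promoter had 3 E-boxes, beginning 92, 73 and 44 bases before the start. The outer pair had the letters CAGCTG, and 1.90% of all windows had at least 2 copies of that form. Both strands were searched; CANNTG and the CArG box read the same way on either strand, and CAGCTG is one form of CANNTG.

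One peak lay inside Dmd. It ran over 190 bases at chrX:84097022-84097212 (mm10) and ranked 166 of 256 by width, narrower than the median of 236 bases. In the whole series 106 of 21523 protein-coding genes (0.492%) spanned a peak midpoint. Dmd was annotated on the plus strand at chrX:82814664-85205050, a length of 2390387 bases. The midpoint lay 1282453 bases from its 5′ end and 1107933 bases from its 3′ end, at 53.7% of the gene length. The midpoint was 1148247 bases downstream of the first start shown above and 951178 bases upstream of the second. Distances to other promoters within Dmd were not analysed here. Exon positions were not used here, so whether the peak falls in an exon or an intron is not stated.

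**Figure D1:**
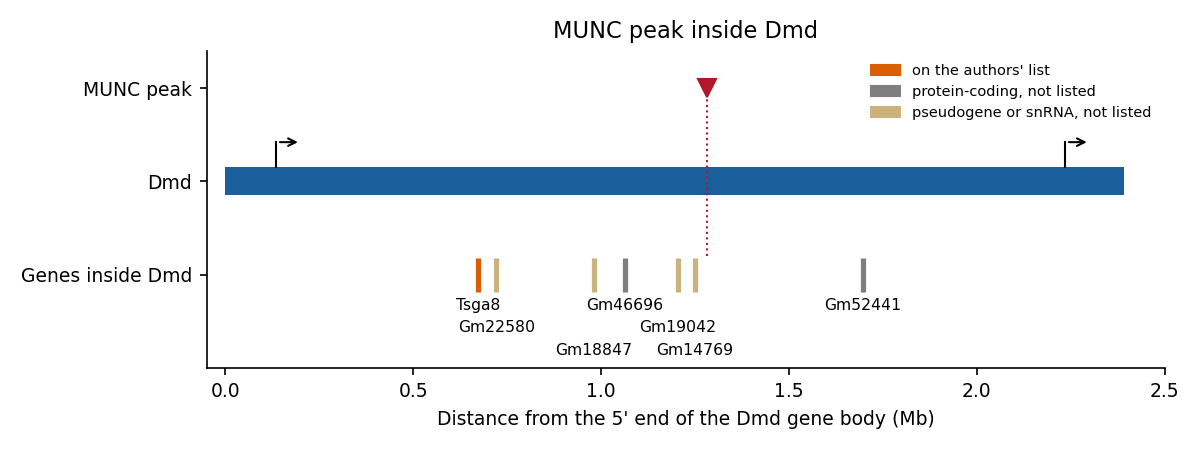
Map of Dmd, with the distance from the 5′ end of the gene body in Mb on the x axis. Arrows mark the 2 Dmd promoters of the table used, the triangle and dotted line the midpoint of the MUNC peak, and ticks the 7 genes annotated inside Dmd, coloured by whether they are on the authors' list; the peak sits near the middle of the gene, between Gm14769 and Gm52441.

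Within Dmd, 7 smaller genes were annotated: 3 protein-coding genes, 3 pseudogenes and 1 snRNA gene. The pseudogene Gm14769 was the nearest to the peak midpoint, at 33301 bases. The nearest protein-coding genes on either side were Gm46696 at 213639 bases and Gm52441 at 413720 bases, both known by a predicted-gene symbol. Tsga8, a gene of testis expression, lay 609193 bases away on the 5′ side. Beyond the 3′ end of Dmd the next protein-coding gene was out of the 1000000-base range of the peak.

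Dmd was not on the authors' list, which held 399 protein-coding genes matched to the table (1.85% of all). Among genes with a peak inside, absence was uncommon: 101 of the 106 (95.3%) were listed. Of the 109 peaks with a spanning protein-coding gene, the Dmd peak was the 1 peak for which neither the spanning gene nor a nearest gene on either side was listed. Tsga8 was the 1 listed gene among the 8 annotated genes within 1000000 bases of it. In the distance between the peak and the 5′ end of the gene body (1282453 bases), Dmd ranked first among the spanning genes whose strand was known, followed by Dlg2 with 1173840.5 bases and Galntl6 with 1036530.5 bases, both named after their values were seen. Counted from the first Dmd promoter shown above (1148247 bases), it would stand below the value of Dlg2. These 3 were the genes for which the distance from the gene-body end was above 1000000 bases, and Dlg2 was listed while Dmd and Galntl6 were not. The median distance was 78071.8 bases in the listed spanning genes, but unlisted genes were not all this far: the peak was 97298 bases from the 5′ end of Msh3 and the nearer of 2 peaks was 21740 bases from that of Pced1b, both unlisted and also named after their values were seen. The rule by which the authors joined genes to peaks is not given in the sources used here, and whether distance to the start set the listing was not tested.

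Dmd was the longest of the 21523 protein-coding genes, so the chance that a peak falls inside it was worked out from its length. It covered 1.43% of chromosome X counted from base 3000000 up to where the last annotated gene ends. Chromosome X carried 10 peaks, and 0.143 peaks would lie in Dmd if these were spread uniformly. The chance of at least 1 is then 13.4%. Dmd ranked 27 of all genes by this chance, behind shorter genes on chromosomes with more peaks per base, such as Ctnna3 on chromosome 10 (23.9%), the highest value and named for it. With all 256 peaks spread over the autosomes and X, 0.238 peaks would lie in Dmd. Unmappable sequence and gaps were not removed from these spans.

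**Figure D2:**
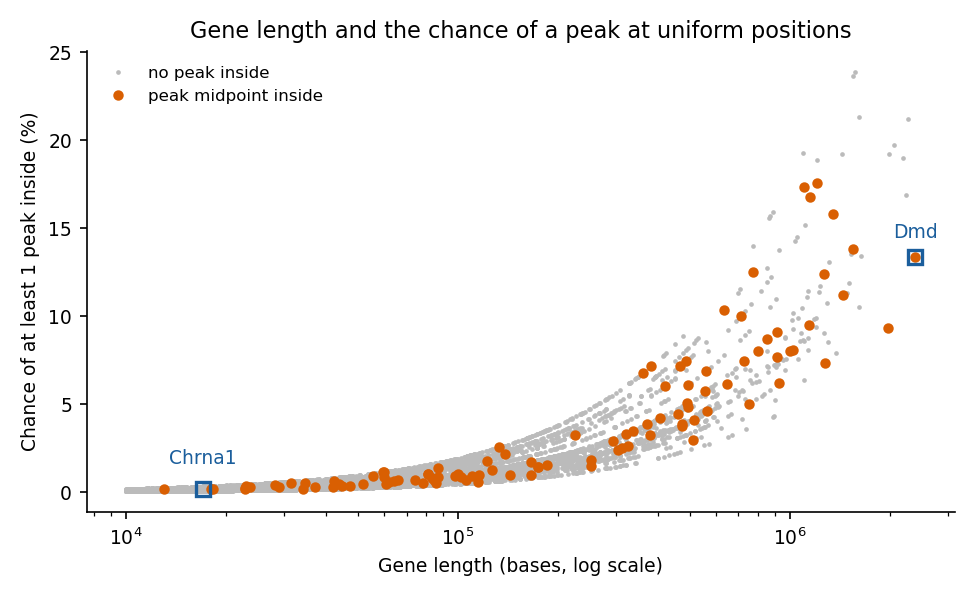
Chance of at least 1 peak midpoint inside a gene (y axis, %) against gene length (x axis, bases, log scale) for the protein-coding genes of at least 10000 bases. Orange points have a peak inside and squares mark Dmd (13.4%) and Chrna1 (0.181%); the chance rises with length and differs between chromosomes of unequal peak number.

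The other very long genes place the Dmd peak in context. Of the 10 longest, Dmd and Dlg2 spanned 1 peak each, while Ptprd, Cntnap2, Lsamp, Lrp1b, Macrod2, Csmd1, Nrxn3 and Fhit spanned none. The summed chances for these 10 genes were 1.64, beside the 2 found. Among the 59 genes of at least 1000000 bases, 13 (22.0%) spanned a peak, where the summed chances were 7.49. For genes from 100000 to 1000000 bases the count was 54 and the sum 54.5. Over all protein-coding genes 106 spanned a peak, and the chances summed to 103.6. Dmd was itself chosen for having a peak, so its own count adds nothing to these sums as evidence.

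Chrna1 had no peak inside. Its peak of 253 bases, at chr2:73512692-73512945, ranked 112 by width and lay within Wipf1, which encodes a partner of WASP in actin polymerisation. Chrna1 was annotated at chr2:73563281-73580338 on the minus strand, a gene of 17058 bases. The midpoint lay 50462.5 bases beyond its 3′ end and 67519.5 bases from its transcription start. Neither member was near the limit of 1000000 bases set by the rule, since Dmd holds its peak. Wipf1 stood between: it extends over chr2:73429610-73529487 on the same strand, and its 5′ end was 16668.5 bases from the peak in the direction of Chrna1. The promoter table has 3 starts of Wipf1: the peak lay downstream of the one at the 5′ end and upstream of the other two, by 27065.5 and 58929.5 bases. The lncRNA gene Gm30940, at 48367.5 bases, was also nearer to the peak than Chrna1 and overlaps its 3′ end. Of all protein-coding genes, 409 (1.90%) neighboured a peak without spanning one, and 515 (2.39%) spanned or neighboured one.

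**Figure D3:**
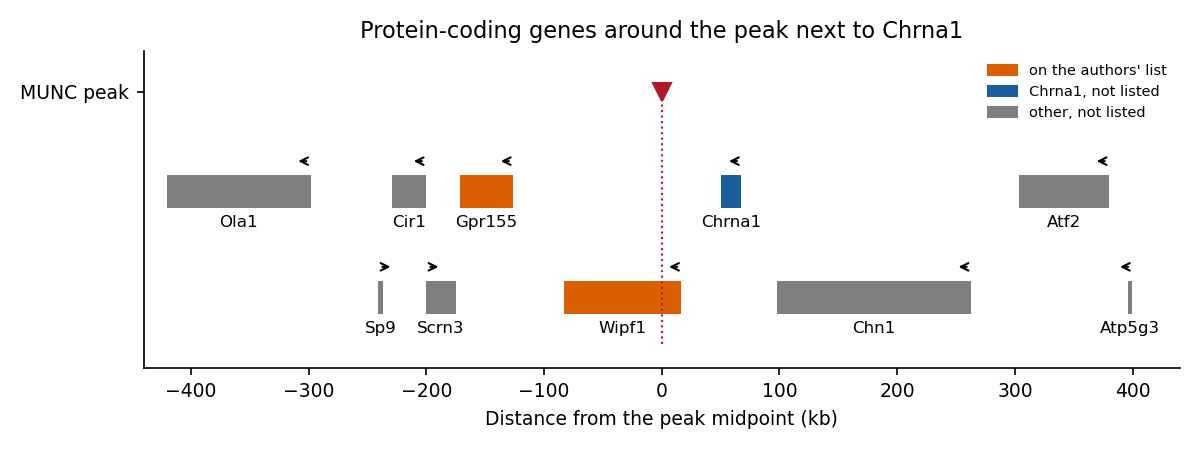
Protein-coding genes around the peak next to Chrna1, with the distance from the peak midpoint in kb on the x axis; bars are gene bodies, drawn at alternating heights for legibility, and arrows show the 5′ end and direction of each gene. Wipf1 spans the peak, and the listed genes are Wipf1 and Gpr155, not Chrna1 or Chn1.

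Chrna1 was not on the authors' list, although the peak had listed genes. Of the 11 protein-coding genes within 1000000 bases of the midpoint, 2 were listed: Wipf1, which contains the peak, and Gpr155, the nearest gene on the other side, at 126297.5 bases. Chrna1 was thus nearer to the peak than the listed Gpr155. Chn1, the next gene beyond Chrna1, lay 97841.5 bases away and was also unlisted. With 1 start per gene, the 5′ end of its body, in place of whole gene bodies, the nearest on either side were those of Wipf1 and Gpr155, the listed pair. With every start of the promoter table, the nearest on both sides were starts of Wipf1. Over all peaks 361 genes (1.68% of all protein-coding genes) were nearest by start within 1000000 bases, and neither Chrna1 nor Dmd was among them. Being nearest by start and being listed did not coincide throughout: 273 of the 361 (75.6%) were listed. Of the 69 spanning genes nearest by start, 68 (98.6%) were listed. Of the 37 other spanning genes, 33 (89.2%) were listed. Most of these 37 had no known strand and so could not be found nearest by start. Dmd had a known strand, so the share of 89.2% does not describe genes like it.

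The side of the spanning gene was therefore examined over all peaks, after this pattern had been seen. Chrna1 lies on the 5′ side of Wipf1, and Gpr155 on its 3′ side. Of 72 pairs of a peak and a neighbouring gene on the 5′ side of the gene that held the peak, 12 (16.7%) had the neighbour on the authors' list. On the 3′ side the count was 56 of 74 pairs (75.7%). Where no gene held the peak, 211 of 241 neighbours (87.6%) were listed. Among the 20 pairs on the 5′ side in which the neighbour was at most as far away as Chrna1, 4 were listed. Chrna1 was thus unlisted like most genes in its position; the cause was not tested. A further 48 pairs had several spanning genes or one of unknown strand, and 22 of them (45.8%) had the neighbour listed. Pairs can share a gene or a peak.

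**Figure D4:**
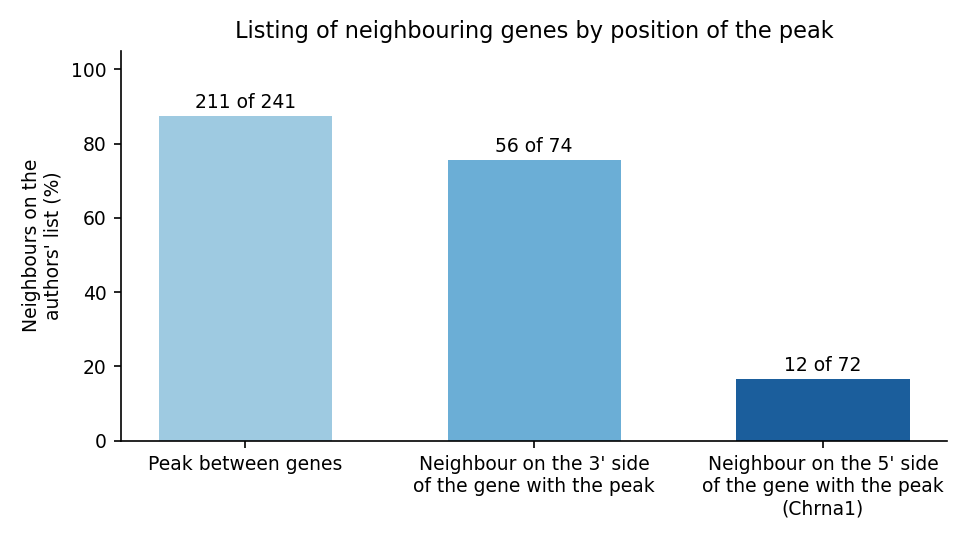
Share of neighbouring protein-coding genes that are on the authors' list (y axis, %), by where the peak lies; the numbers over the bars are pairs of a peak and a neighbour. The share is 87.6% for peaks between genes, 75.7% for neighbours on the 3′ side of the gene holding the peak and 16.7% for those on the 5′ side, the class of Chrna1; the 48 pairs with several spanning genes or one of unknown strand (45.8%) are not drawn.

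The length of Chrna1 gave it little chance of a peak inside: 0.00181 peaks expected of the 19 on chromosome 2, or a chance of 0.181%. The chance of being a neighbour is larger, because it depends on the spacing of genes. A midpoint anywhere over 345757 bases, from the 3′ end of Wipf1 to the 5′ end of Chn1, would have Chrna1 as spanning or nearest gene. That stretch is 0.193% of the chromosome, in which 0.0367 peaks are expected at uniform positions, a chance of at least 1 of 3.61%. With neighbours limited to 100000 bases, 0.0230 peaks are expected. For Dmd the corresponding stretch was 3455627 bases, with 0.206 peaks expected and a chance of 18.8%.

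The surroundings of the peaks differed. Within 500000 bases of the midpoint, 3 protein-coding genes overlapped the window around the Dmd peak and 10 that around the Chrna1 peak, where all peaks had a median of 4 and quartiles of 1 and 10. The next peak on the chromosome was 4362364 bases from the Dmd peak and 5446985 bases from the Chrna1 peak, both farther than the median of 3350321 bases over all peaks. Each was thus a single peak with no other close by.

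The partners of both proteins were then located, from lists of 25 genes of the dystrophin complex and its glycosylation and of 20 genes of the neuromuscular synapse, with Utrn in both. In the dystrophin list, 2 genes (8%) spanned or neighboured a peak, Dmd and Sgcd. Sgcd, the gene of delta-sarcoglycan in the same membrane complex, lay 710366 bases from a peak of 385 bases at chr11:48699624-48700009; the gene on the other side of that peak, Rack1, named after its values were seen, was listed and Sgcd was not. Without Dmd the count was 1 of 24 (4.17%), against the 2.39% of all protein-coding genes. The chances of a peak inside summed to 0.688 over the 24 genes other than Dmd, and 0 of them held one. Other partners are named for their role, without a peak as neighbour. The autosomal paralogue of dystrophin, utrophin (Utrn), was 2.93 Mb from its nearest peak, and Dag1, whose product dystroglycan binds dystrophin, was 3.71 Mb away.

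In the synapse list Chrna1 was the 1 gene of 20 (5%) that neighboured a peak. Without it the count was 0 of 19, against the 2.39% of all protein-coding genes, so 0 is near the background. None held a peak, and the chances of a peak inside summed to 0.306 over the 19 genes other than Chrna1. The genes of the other muscle receptor subunits, again named for their role, were far from any peak: Chrne was 6.58 Mb away, Chrnb1 7.40 Mb, Chrng 7.46 Mb and Chrnd 7.47 Mb. Rapsn, whose product clusters the receptor, was 3.87 Mb from a peak, and Musk, the receptor kinase of the synapse, 6.43 Mb. Erbb2, a neuregulin receptor gene named after its values were seen, was nearer to a peak than Chrna1, at 42238 bases, but other genes lay between.

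**Figure D5:**
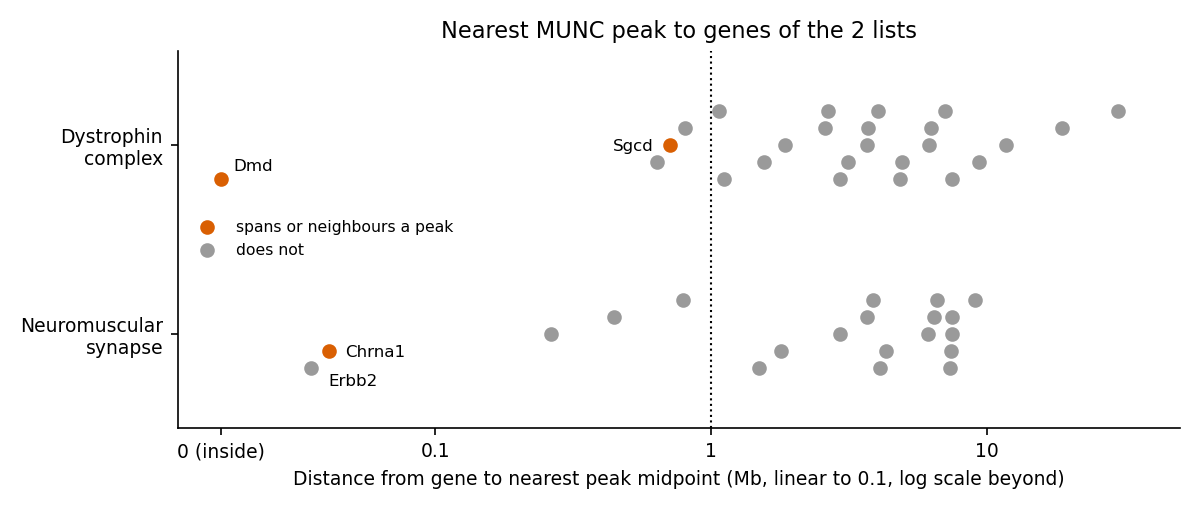
Distance from each gene of the dystrophin complex and neuromuscular synapse lists to the nearest peak midpoint (x axis, Mb; linear up to 0.1 and log beyond), with points spread vertically for legibility. Orange points span or neighbour a peak (Dmd, Sgcd and Chrna1), and the dotted line marks the limit of 1 Mb.

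None of the 44 genes in either list was on the authors' list, where the share over all protein-coding genes was 1.85%, so a count of 0 is near the background. The 44 include Dmd and Chrna1, whose absence was known beforehand. Among all genes that spanned or neighboured a peak, 380 of 515 (73.8%) were listed, while Dmd, Sgcd and Chrna1 were not. Without Dmd, 3 of 24 genes of the dystrophin list (12.5%) lay within 1000000 bases of a peak, and without Chrna1, 4 of 19 of the synapse list (21.1%), against 14.3% of all protein-coding genes. With the members, which were chosen for their peaks, the shares were 16% and 25%. The median distance to the nearest peak was 3.69 Mb for the dystrophin list and 4.08 Mb for the synapse list, again without the members, and 4.50 Mb for all. Myod1, a myogenic gene on the authors' list, neighboured 2 peaks at 4959.5 and 4212 bases. MUNC itself is transcribed upstream of Myod1, so these distances are not a like comparison for the peak of Chrna1.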

How the data were processed

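The authors deposited peak positions without scores and a list of gene symbols, per the file headers. The submitters' processing notes name Bowtie2 (2.3.4.1), MACS2 (2.1.1.20160309) and mm10; threshold, use of the lacZ libraries, pooling of replicates and the coordinate base are not given in the sources used here. Positions are printed as deposited. Python 3.11.15 with pandas 2.3.3 was used. Gene bodies came from RefSeq on GRCm38.p6, the assembly of mm10, for 49214 genes on the autosomes and X starting after base 3000000. Of 410 symbols, 396 matched a current symbol, 12 an older one and 2 none. A gene spanned a peak when it held the midpoint, and neighboured it when nearest on a side by gene body within 1000000 bases. Strand came from the RefSeq promoter table, which covered 80.3% of the protein-coding genes; for ranks and nearest starts, a gene's start is the 5′ end of its body, while distances to a promoter use the starts of that table. Chances are 1 − (1 − length / span) to the power of the peaks on the chromosome. Functions were tested on simulated positions. Members, lists and comparisons were chosen with earlier results of these data known. Genes named were the members, genes at their peaks, list genes that span or neighbour a peak, the 10 longest genes and Myod1; genes outside this rule are marked as named for their role or after their values were seen.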

Additional observations from a re-analysis of the deposited data

How the results depend on the processing

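Over 10 results, 38 alternatives were computed, of which 28 stayed within the range set for them (a factor of 1.5 for counts and distances, the exact 95% binomial interval for shares) and 10 moved. The Dmd peak was absent among the 126 peaks wider than the median (0 peaks inside Dmd). The expected number inside Dmd was 0.238 with positions over all autosomes and X. Chrna1 neighboured 0 peaks with a window of 50000 bases, with nearest genes of all annotated kinds, with the nearest gene only, and by transcription start, an alternative chosen after seeing the data; its expected number fell to 0.0230 with a window of 100000 bases. The dystrophin list had 1 gene with a window of 100000 bases and 1 by spanning, and the synapse list 0 by spanning. The lower counts under shorter windows, by spanning alone, with more gene kinds as nearest genes or with fewer peaks follow from how those alternatives are built. Several of the 28 that stayed could not have moved either. For Dmd these were any overlap, the gene extended by 10000 bases and close peaks merged. For Chrna1 they were windows of 500000 and 100000 bases and close peaks merged. The 28 are therefore no measure of stability. The shares of listed neighbours, whose alternatives were also chosen after seeing the data, ran from 16.7% to 19.4% on the 5′ side and from 73.8% to 75.8% on the 3′ side. No paired analysis was possible because both files are pooled over the libraries, so no replicate could be left out. Depth and weaker sites cannot be judged from them.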
